A study of Mus musculus with 120 samples.

Results

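The genes described here are the *Ifi200* family, the mouse genes for interferon-inducible DNA sensors that lie side by side on chromosome 1. The list held 10 names, *Ifi202b*, *Ifi203*, *Ifi204*, *Ifi205*, *Ifi207*, *Ifi209*, *Ifi211*, *Mnda*, *Mndal* and *Aim2*. Of these, 9 were rows of both count tables, among 55487 genes that the tables share, and *Mnda* is listed in RefSeq as another name of *Ifi211*. The members were taken by gene name. The family was selected on measured values of these same samples, namely its levels in NOD against NOR mice and at 6 weeks against later times, so those differences are given below as a description. How many members were past the threshold of a fit over all genes is stated there for scale, with the share of all genes, and supports nothing about the family.

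RNA was measured in immunological niches (INs), which are microporous poly(ε-caprolactone) scaffolds placed under the skin, retrieved as biopsies and replaced. Total RNA depleted of ribosomal RNA was sequenced in bulk from 120 INs of 3 cohorts: 23 from NOR/LtJ mice, which share the diabetogenic *H2g7* locus with NOD but stay normoglycemic, 58 from NOD/ShiLtJ progressors, which became hyperglycemic, and 39 from NOD/ShiLtJ nonprogressors. NOR mice were biopsied at 6 (n = 4), 10, 14 (n = 5 each), 18 (n = 4) and 22 weeks of age (n = 5), nonprogressors at 6 (n = 11), 10 (n = 4), 14 (n = 10), 18 and 22 weeks (n = 4 each), and progressors at 6 weeks of age and at −7 (n = 8), −5, −3 and −1 weeks before onset and at onset (n = 10 each otherwise). The labels name no treatment beyond the implant, which all groups carried. Implants were placed at 4 weeks of age and the first were removed at 6 weeks, so age and the order of the biopsies cannot be told apart. A further 6 nonprogressor INs are labelled by days after implantation, are not tied to a mouse and entered no comparison. Sequencing batch 1 held 74 INs, among them all NOR samples, and batch 2 held 46, among them all −7 samples.

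Proteins of this family pair a HIN domain, which binds double-stranded DNA, with a pyrin domain, which recruits partner proteins. AIM2 senses DNA in the cytosol and assembles an inflammasome with the adaptor PYCARD (ASC), through which caspase-1 matures interleukin-1β and interleukin-18 and cleaves gasdermin D. IFI204 is usually set beside human IFI16 and has been linked to signalling through STING, while IFI202, the product of *Ifi202b*, has no pyrin domain and can hold AIM2 back. Many of the genes are themselves induced by interferon, in macrophages and in other cells.

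The 9 genes occupied 680.9 kb of chromosome 1 (GRCm38, chr1:173350879-174031810), in the order *Aim2*, *Ifi209*, *Ifi207*, *Ifi204*, *Mndal*, *Ifi211*, *Ifi203*, *Ifi202b* and *Ifi205*. *Aim2* and *Ifi209* lie on the plus strand and the others on the minus strand. Starts of 8 of the members, 10 in all, were taken from RefSeq (GRCm38.p6), and the 250 bases before each were searched on both strands for GAAANNGAAA, the core of the interferon-stimulated response element. A match stood before 6 starts of 5 members, against 2.98% of the 32851 promoters of the same length. The 65 bases around the matches are shown because the surroundings are shared between members as well. Capitals mark the match, and in the last pair of sequences, from *Ifi209* and *Aim2*, they mark the nearest stretch, which has 1 mismatch to the motif.
Ifi207 (chr1:173741816-173741880, minus strand): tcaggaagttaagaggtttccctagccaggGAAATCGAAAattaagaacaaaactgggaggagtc
Ifi211 (chr1:173913049-173913113, minus strand): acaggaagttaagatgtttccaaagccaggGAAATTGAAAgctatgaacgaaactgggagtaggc
Ifi205 (chr1:174031855-174031919, minus strand): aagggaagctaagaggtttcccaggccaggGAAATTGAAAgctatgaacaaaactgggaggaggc
Ifi203 (chr1:173942493-173942557, minus strand): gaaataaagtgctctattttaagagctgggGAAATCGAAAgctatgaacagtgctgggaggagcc
Mndal (chr1:173880189-173880253, minus strand): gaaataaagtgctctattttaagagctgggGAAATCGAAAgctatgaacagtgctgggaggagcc
Ifi209 (chr1:173630786-173630850, plus strand): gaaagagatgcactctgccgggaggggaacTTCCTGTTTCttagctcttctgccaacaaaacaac
Aim2 (chr1:173420523-173420587, plus strand): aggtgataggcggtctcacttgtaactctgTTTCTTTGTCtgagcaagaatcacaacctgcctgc

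The stretch of *Mndal* was identical to that of *Ifi203* at all 65 bases, and *Ifi211* shared 57 of 65 bases with *Ifi205* and 54 with *Ifi207*. Counted from the start, the match lay at −35 in *Ifi203*, −36 in *Mndal*, −37 in *Ifi211*, −41 in *Ifi207* and −134 in *Ifi205*. *Mndal* has a second start with a match of its own. *Ifi202b*, *Ifi209* and *Aim2* had no full match in this window, and a stretch with at most 1 mismatch, as in *Ifi209* and *Aim2*, occurs in 31.4% of promoters. TTCNNNGAA, the gamma-activated site, matched in *Ifi202b* alone among the members (7.02% of all promoters). These are reference sequences, which can differ from those of NOD and NOR mice, and the matches are descriptions of letters only. No sequence of *Ifi204* was matched.

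Near-identical copies limit how well the members can be told apart. Of the 51-base stretches in the transcripts of *Ifi211*, 72.4% also occur in another gene of the family, as do 32.8% of those of *Ifi209* (with *Ifi214*). For *Ifi204*, *Ifi205*, *Mndal* and *Ifi203* the shares were 18.8%, 18.5%, 17.3% and 11.8%, for *Ifi207* 5.18%, and for *Aim2* and *Ifi202b* 0%. The counts are estimates that divide shared reads between genes, so the values of *Ifi211* and *Ifi209* are the most uncertain in this respect. The annotated span of *Mndal* reaches across *Ifi211* to the start of *Ifi203*, on the same strand, with 37 shared exon bases.

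Counts per IN ran from 4722396 to 56185434 in batch 1 and from 29029239 to 43880986 in batch 2. Levels are given as CPM, counts relative to the library total after scaling by edgeR's TMM method. A pair of libraries stood apart. The 18-week IN of NOR mouse 5 had a scaling factor of 0.115, against 0.505 to 1.26 in the others, and listed *Ifi209* and *Ifi211* at 0. The −5 IN of progressor mouse 8 held the highest value after 6 weeks among progressors for *Ifi202b*, *Ifi203*, *Ifi204*, *Ifi207*, *Ifi209*, *Ifi211* and *Mndal*. In bulk INs, fewer cells of a type and less RNA per cell cannot be told apart. Of the expected cell types, macrophage markers summed to 3927 to 10200 CPM and fibroblast markers to 4143 to 69260 CPM over the cohorts, with none of their genes at 0 throughout a group. B cell markers summed to at most 15.3 CPM.

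Per kilobase of exon, *Ifi207* had the highest level of the family at 6 weeks in every cohort, with a median of 21.3 CPM per kb in NOR, 32.1 in nonprogressors and 27.4 in progressors. *Ifi202b* followed with 11.5, 24.8 and 18.9 CPM per kb, then *Ifi203* with 8.96, 17.1 and 12.1. The ranges of these neighbours in the order overlapped in both NOD cohorts, and those of *Ifi207* and *Ifi202b* did not in NOR. *Ifi204*, *Mndal*, *Ifi205* and *Ifi211* lay between 3.94 and 13.3 CPM per kb in the medians of the 3 cohorts. *Aim2* had 3.44, 3.69 and 3.49 CPM per kb. *Ifi209* was the lowest, with 0.597, 1.44 and 0.807 CPM per kb. After 6 weeks *Ifi207*, *Ifi202b* and *Ifi203* kept the first 3 places in all cohorts and *Ifi209* the last, while *Aim2* moved from the place before last to 6th in both NOD cohorts.

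**Figure D1:**
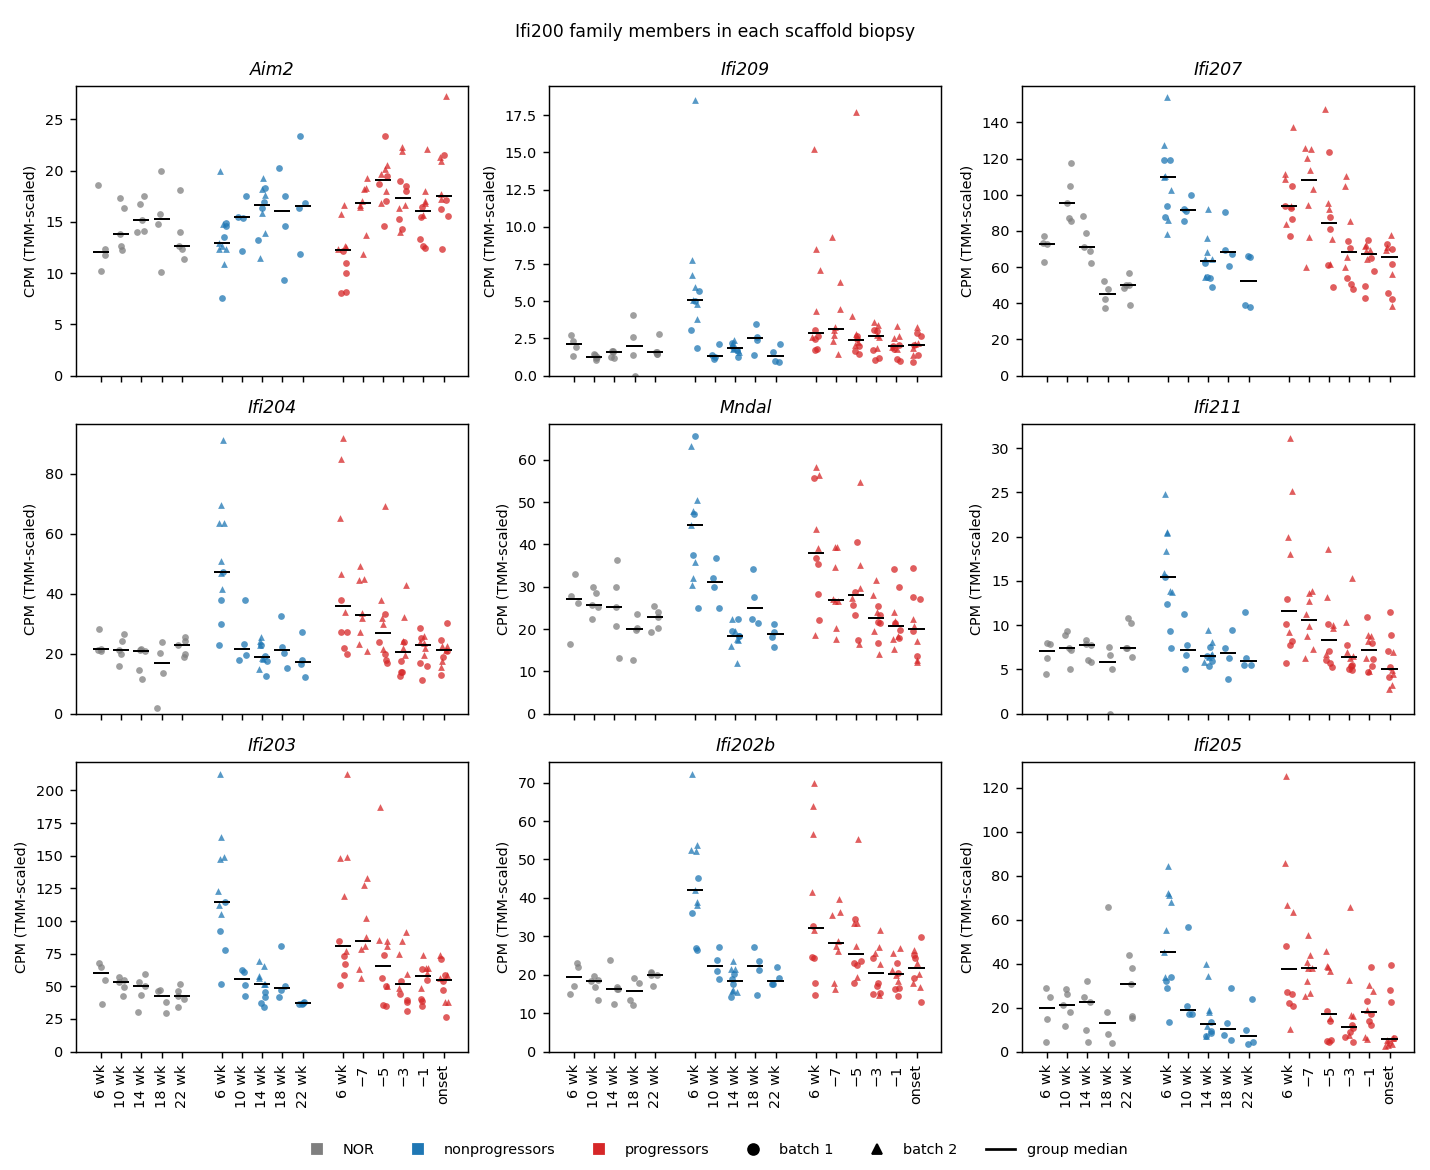
Level of each member (CPM, TMM-scaled, y axis from 0) in each IN, by cohort and time (x axis: age for NOR and nonprogressors, weeks before onset for progressors after 6 weeks of age). Circles are batch 1, triangles batch 2 and bars the group medians; for 8 members the 6-week medians stand above the later ones in nonprogressors, and *Aim2* does not show this.

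Between the strains, a contrast that was in view when the family was chosen, the differences of the members were small over the whole course and are a description only. With the batch 1 INs of each mouse summed (9 NOD and 5 NOR mice), the log2 difference of NOD minus NOR ran from −0.20 (*Ifi205*, standard error 0.24) to 0.31 (*Ifi202b*, standard error 0.10), with 8 of 9 members above 0. By edgeR's quasi-likelihood test 0 of 9 were past an adjusted p of 0.05, where 8.98% of all genes tested were. An unadjusted p under 0.05 was found in 1 member and in 5466 of the 23387 genes. DESeq2 called 1 member (*Ifi202b*) and 12.7% of all genes. *Ifi202b* was also past the threshold with nonprogressors alone as NOD (log2 difference 0.38, standard error 0.081), where 6.26% of all genes were. The same held with each IN entered separately (0.29, standard error 0.093), where 9.33% of all genes were called. That setting counts repeated INs of a mouse as replicates. These calls of 1 of 9 are a description as well. Among 67 tested genes within 2 Mb that are not of the family, 3 were called (median log2 difference −0.023), beside the 8.98% of all genes. Of these, 2 were higher in NOD, *Slamf9* (0.40) and *Tagln2* (0.27), and 1 was lower.

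At 6 weeks of age the strains stood further apart. *Ifi203* had 64.9, 68.2, 36.2 and 55.2 CPM in the 4 NOR INs. The 9 NOD INs of batch 1 had a lowest value of 50.6, a median of 73.1 and a highest of 114.6 CPM. The lowest NOD value was below 3 of the NOR values, so the ranges overlapped. *Ifi202b* had 22.0, 22.96, 15.0 and 17.1 CPM in NOR and 14.8 to 45.2 CPM in NOD of batch 1, with a median of 26.4. *Ifi204* had 21.3, 28.3, 20.9 and 21.6 CPM in NOR and 19.8 to 47.3 CPM in NOD of batch 1, with a median of 27.3. Over the 21 NOD INs of both batches the medians of these 3 genes were higher, at 112.6, 38.9 and 46.6 CPM, but batch 2 has no NOR sample. Within batch 1, the 6-week log2 differences of NOD minus NOR were 0.39 to 0.63 in 8 members and −0.25 in *Aim2* (median 0.52). By edgeR's test 0 of 9 passed the threshold, where 2.11% of all genes did. An unadjusted p under 0.05 was found in 3 members and in 2589 of the 19078 genes tested. These values too are a description only.

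In NOR mice, the mean of the later ages lay close to the 6-week level. From 6 weeks to the mean of 10 to 22 weeks, log2 differences ran from −0.31 (*Ifi203*, standard error 0.15) to 0.23 (*Ifi205*, standard error 0.53), with 6 of 9 below 0. Of the 9 members 0 were past the threshold of edgeR's test, as were 0.0357% of all genes (7 genes), 0 had an unadjusted p under 0.05, and DESeq2 called 0. Without the 18-week IN of mouse 5 that stood apart, 0 of 9 were called as well, here and between the strains. *Ifi205* spread widely among NOR INs, with 28.8, 24.7, 4.28 and 15.0 CPM at 6 weeks and 3.87 to 65.6 CPM later. The 65.6 CPM was the value of that 18-week IN of mouse 5, and the highest value at 22 weeks was 44.0 CPM.

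In nonprogressors, 8 of the 9 members were lower at 10 to 22 weeks than at 6 weeks. By edgeR's test these 8 were past an adjusted p of 0.05 in the lower direction and 0 in the higher one, where 14.2% of genes were called lower and 9.88% higher. The family was chosen with this contrast in view, so nothing is read from that count. *Ifi209* had the largest difference. It had 1.83 CPM in the lowest of the 11 INs at 6 weeks, a median of 5.11 and a highest value of 18.5, against 0.888, 1.76 and 3.49 CPM in the 22 later INs, a log2 difference of −1.54 (standard error 0.25). *Ifi204*, which is tied to STING signalling, fell from a median of 47.3 CPM (23.01 to 91.2) to 19.3 CPM (12.2 to 38.0), a log2 difference of −1.01 (standard error 0.18).

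*Ifi202b*, the gene for the pyrin-less antagonist of AIM2, had 26.4 to 72.3 CPM at 6 weeks (median 42.1) and 14.2 to 27.2 CPM later (median 19.7). The ranges overlapped only between 26.4 and 27.2 CPM, and the log2 difference was −0.94 (standard error 0.13). *Ifi203* had a median of 114.6 CPM at 6 weeks (52.1 to 212.4) and of 48.9 CPM later (33.9 to 81.2), with a log2 difference of −0.98 (standard error 0.13). Its neighbour *Mndal* went from a median of 44.7 CPM (24.9 to 65.7) to 20.4 CPM (11.98 to 36.8), a log2 difference of −0.99 (standard error 0.14). *Ifi205* went from 45.1 CPM (13.3 to 84.4) to 13.0 CPM (3.35 to 56.6), with a wider error (log2 difference −1.01, standard error 0.33). *Ifi211* had a log2 difference of −0.91 and *Ifi207*, at −0.58, moved least of the 8.

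In progressors, the same 8 members were lower after 6 weeks and *Aim2* was higher. By edgeR's test all 9 were past the threshold, 8 lower and 1 higher, where 18.5% and 18.0% of genes were called lower and higher. This contrast too was in view when the family was chosen, and nothing is read from the count. *Ifi205* had the largest difference, with 10.1 to 125.5 CPM in the 10 INs at 6 weeks (median 37.8) and 2.36 to 65.9 CPM in the 48 later INs (median 16.9), a log2 difference of −1.26 (standard error 0.34). At onset its median was 5.70 CPM, but the highest of those 10 INs had 39.5 CPM. *Ifi211* and *Ifi204* followed with −0.90 and −0.85 (standard errors 0.18 and 0.16), and *Ifi209* had −0.80 (standard error 0.24). *Ifi203*, *Mndal*, *Ifi202b* and *Ifi207* had log2 differences of −0.71, −0.69, −0.65 and −0.42. Without the −5 IN of mouse 8 the difference of *Ifi209* was −0.93 and the same counts were past the threshold, 8 lower and 1 higher.

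**Figure D2:**
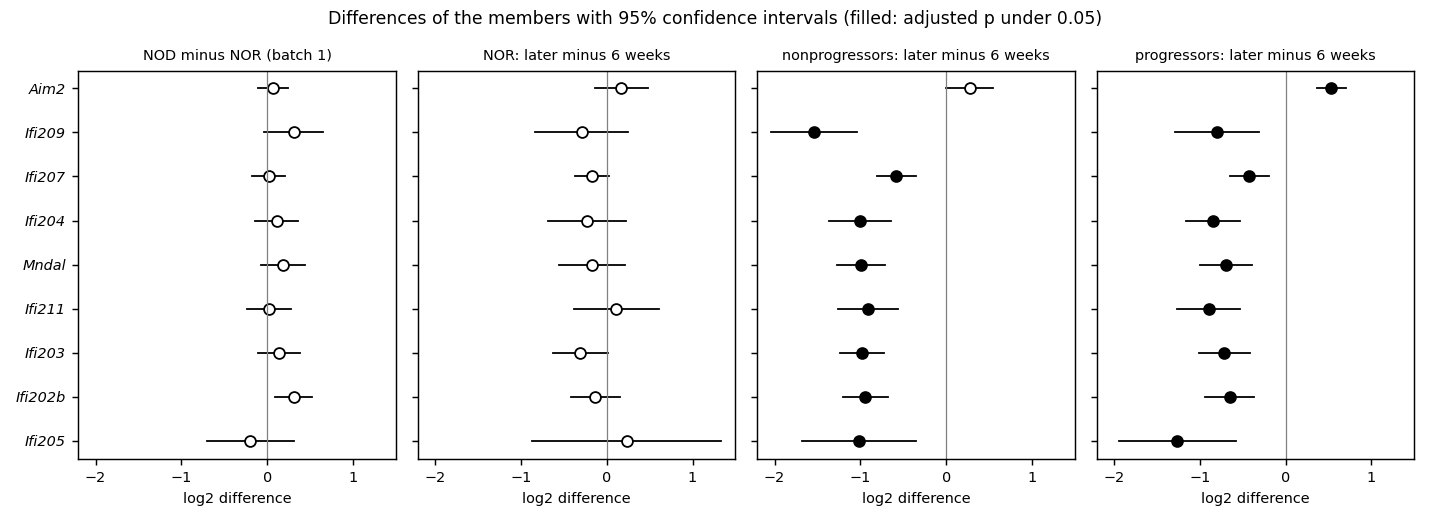
Log2 difference of each member (points) with its 95% confidence interval (lines) for NOD minus NOR in batch 1 and for later minus 6-week INs in each cohort; filled points are past an adjusted p of 0.05 by edgeR's test. The strain and NOR panels hold 0 filled points, the nonprogressor panel 8 and the progressor panel 9, with *Aim2* on the positive side in both NOD panels.

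*Aim2*, which senses cytosolic DNA itself, stood apart from the rest. In progressors of batch 1 it had 11.0, 10.0, 8.12, 12.1 and 8.05 CPM in the INs of mice 1 to 5 at 6 weeks, and 12.4 to 23.4 CPM in all 20 later INs, so the groups did not overlap. In batch 2 it had 12.3 to 16.6 CPM at 6 weeks and 11.9 to 27.2 CPM later, and 22 of 28 later INs were above all 5 of the 6-week INs. The log2 difference over both batches was 0.53 (standard error 0.086), with 0.75 in batch 1 and 0.39 in batch 2. In nonprogressors *Aim2* had a median of 12.9 CPM at 6 weeks (7.59 to 19.97) and of 16.3 CPM later (9.30 to 23.4), a log2 difference of 0.27 (standard error 0.14) that was not past the threshold. In NOR the difference was 0.17 (standard error 0.15).

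The falls were mostly larger in sequencing batch 2 than in batch 1, a difference that was not tested. In nonprogressors of batch 2 the 7 INs at 6 weeks and the 6 later INs, all from 14 weeks, did not overlap for *Ifi209*, *Ifi204*, *Mndal*, *Ifi211*, *Ifi203* and *Ifi202b*, 6 of 9 members. The share of all genes without overlap was not computed. By another measure, edgeR's test within batch 2, 17.3% of all genes were called lower in this cohort. The family was chosen with this contrast in view, so nothing is read from the count without overlap. *Ifi203*, for example, had 105.0 to 212.4 CPM at 6 weeks and 51.8 to 69.3 CPM later there, and 52.1 to 114.6 against 33.9 to 81.2 CPM in batch 1. In batch 1, 0 of 9 members were free of overlap in that cohort. The counts past the threshold of edgeR's test in nonprogressors were 6 of 9 within batch 1, where 6.61% of all genes were called lower, and 8 within batch 2, where 17.3% were. In progressors they were 5 within batch 1 (4 lower) and 8 within batch 2 (7 lower), beside 13.4% and 16.1% of all genes called lower. *Ifi202b* had a log2 difference of −0.15 in batch 1 of progressors (standard error 0.17) and −1.05 in batch 2 (standard error 0.18), and *Ifi209* had −0.30 and −1.23. Batch and the times sampled changed together in both NOD cohorts, since the −7 INs of progressors are all of batch 2. Mice changed with batch as well, except that progressor mice 1 to 4 have their −7 INs in batch 2. The parts of batch, mouse and time cannot be told apart.

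Within single mice, the direction was the same as between groups. Setting each 6-week IN against the mean of the later INs of that mouse and batch, on the log2(CPM + 1) scale, *Ifi202b*, *Ifi203*, *Ifi204*, *Ifi205*, *Ifi209*, *Ifi211* and *Mndal* were lower in 10 of 10 nonprogressors and *Ifi207* in 9. In progressors *Ifi203*, *Ifi207* and *Ifi211* were lower in 10 of 10 mice, *Ifi204*, *Ifi205* and *Mndal* in 9, and *Ifi202b* and *Ifi209* in 8. *Aim2* was higher in 9 of 10 progressors and in 7 of 10 nonprogressors. The 4 NOR mice with a 6-week IN split, with 3 of 4 lower for *Ifi202b*, *Ifi203*, *Ifi204*, *Ifi207* and *Mndal* and 2 of 4 for *Ifi205*, *Ifi209* and *Ifi211*. *Ifi205* had the widest range over mice, from −3.20 to 0.64 in progressors.

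**Figure D3:**
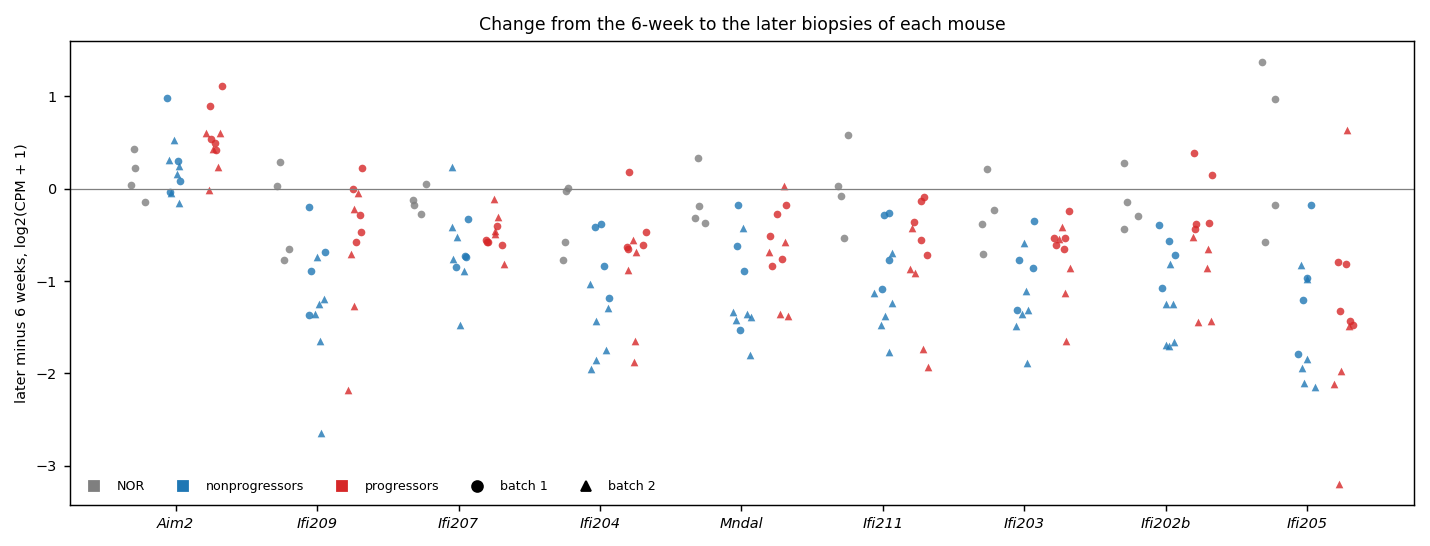
Mean of the later INs minus the 6-week IN of each mouse (y axis, log2(CPM + 1), same batch) for each member, with NOR in grey, nonprogressors in blue and progressors in red, circles for batch 1 and triangles for batch 2. The NOD points of 8 members lie mostly below 0, those of *Aim2* mostly above, and NOR points lie on both sides.

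Which members kept changing after 6 weeks was tested among the later times alone, a contrast that the choice of the family did not name, although it used the same later INs. *Ifi207* was called in all 3 cohorts, but in progressors the call was lost with the mouse as a replicate block or without −7. In NOR it had 95.2, 117.6, 85.7, 104.8 and 87.3 CPM at 10 weeks, 69.0, 62.3, 88.2, 71.2 and 78.8 at 14 weeks, 52.2, 47.7, 42.5 and 37.3 at 18 weeks, and 50.2, 48.6, 39.2, 56.9 and 50.2 at 22 weeks. Each value at 10 or 14 weeks was above each at 18 or 22 weeks, while the 6-week INs (73.2, 77.3, 62.8 and 72.7 CPM) lay with those at 14 weeks. The F test of edgeR over the ages from 10 to 22 weeks gave an adjusted p of 2.15e-05 for *Ifi207*, 1 of 9 members called where 9.69% of all genes were. Leaving out each mouse in turn gave adjusted p-values of 0.0002143 to 0.00197. Without the 18-week IN of mouse 5 the value was 2.63e-05 and *Ifi209* was called as well (adjusted p = 0.0476).

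In nonprogressors *Ifi207* went from 85.7 to 100.1 CPM at 10 weeks (4 INs, median 91.6) to 38.1 to 66.0 CPM at 22 weeks (4 INs, median 52.4), without overlap. The medians at 14 and 18 weeks, 63.4 and 68.4 CPM, lay between these, and both ranges overlapped those at 10 and at 22 weeks. The adjusted p over these ages was 0.0132 by edgeR. The 22-week INs had low TMM scaling factors, 0.837, 0.741, 0.604 and 0.505, and their part in this result was not tested. *Mndal* was called too (adjusted p = 0.0364), with 25.1 to 36.8 CPM at 10 weeks (median 31.0), a median of 18.3 at 14 weeks, 25.1 at 18 weeks and 18.8 at 22 weeks, which is no steady order. The call of these 2 of 9 members stands beside 12.0% of all genes. Cell type markers differed in the same test, with 2 of 4 fibroblast, 2 of 4 adipocyte, 2 of 8 macrophage, 1 of 4 B cell and 1 of 5 T cell markers called. In NOR 1 of 4 fibroblast, 1 of 8 macrophage, 1 of 5 T cell and 1 of 4 neutrophil markers were called, and in progressors 2 of 5 T cell and 2 of 4 keratinocyte markers. Their part in the levels of the members was not tested. With the mouse as a replicate block *Ifi207* had an adjusted p of 0.0359 and *Mndal* of 0.0546, so 1 member was called, and DESeq2 called 4, with *Ifi203* and *Ifi205* in addition.

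In progressors *Ifi207* had a median of 108.3 CPM at −7 (60.1 to 125.8), 84.5 at −5 (48.9 to 147.2), 68.1 at −3 (48.0 to 110.2), 67.1 at −1 (42.8 to 75.1) and 65.8 at onset (38.3 to 77.8). Neighbouring times overlapped throughout, and so did −7 and onset. The adjusted p over the 5 times was 0.0156 by edgeR, 1 of 9 members called where 5.54% of genes were. This call rested on the −7 INs, which are all of batch 2: without them the adjusted p was 0.133 and 0 of 9 members were called, and with the mouse as a replicate block it was 0.0574, also with 0 called. DESeq2 called 1. Of the remaining members, *Mndal* and *Aim2* had unadjusted p-values under 0.05 in the fit over all 5 times and adjusted p-values of 0.182 and 0.139 by edgeR.

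Progressors and nonprogressors did not differ detectably in any member. At 6 weeks of age the log2 difference of progressors minus nonprogressors (10 against 11 INs, batch as a term) ran from −0.29 (*Ifi209*, 95% interval −0.93 to 0.35) to 0.14 (*Ifi205*, −0.45 to 0.73). By edgeR's test 0 of 9 members were called, as were 0.0% of all genes, with 0 members at an unadjusted p under 0.05, and DESeq2 called 0. Within batch 1 the differences ran from −0.76 (*Ifi209*) to 0.07 (*Ifi205*) and within batch 2 from −0.04 to 0.18, with 0 called in either. *Ifi202b* had −0.20 (standard error 0.17) over both batches, −0.58 (standard error 0.24) within batch 1 and 0.067 (standard error 0.20) within batch 2. *Aim2* had −0.14 (95% interval −0.40 to 0.12).

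After 6 weeks, with the INs of each mouse summed and −7 left out, the log2 differences of progressors minus nonprogressors ran from −0.08 (*Ifi205*) to 0.52 (*Ifi209*, standard error 0.20, adjusted p = 0.470 by edgeR), with 8 of 9 above 0. Of the members 0 were called, against 0.0132% of all genes (3 genes), and DESeq2 called 0. An unadjusted p under 0.05 was found in 2 members (*Ifi209* and *Ifi202b*) and in 2158 of the 22696 genes tested. For *Ifi209* the difference fell to 0.32 (standard error 0.12) without the −5 IN of progressor mouse 8, and it was 0.22 within batch 1 and 0.76 within batch 2. *Ifi202b* had 0.25 (95% interval 0.016 to 0.47) and *Aim2* 0.15 (−0.018 to 0.32). Times differ between these cohorts, since those of progressors count back from onset.

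The change from 6 weeks to later ages was also set against that in NOR, in batch 1. For nonprogressors minus NOR, the difference of log2 changes was below 0 in 8 of 9 members, from −1.21 (*Ifi205*, standard error 0.73) to −0.48 (*Ifi207*, standard error 0.17), and 0.18 in *Aim2* (standard error 0.24). By edgeR's test 0 of 9 members were called, as were 0.0% of all genes. An unadjusted p under 0.05 was found in 6 members and in 1250 of the 20647 genes tested. That member count was 1 without nonprogressor mouse 1, 3 without NOR mouse 4, and 5 or 6 without any other single mouse. The smallest adjusted p by edgeR was 0.740, shared by *Ifi202b* (difference −0.59, standard error 0.21), *Ifi207* and *Mndal* (−0.72, standard error 0.26). DESeq2 called 0. Without the 18-week IN of NOR mouse 5 the lowest difference was −0.99, and 0 of 9 members were called. The comparison with NOR combines contrasts used to choose the family and is not independent of that choice. With progressors in place of nonprogressors, a setting added after the values were seen, the median over members was −0.20 against −0.59. There 1 of 9 members had an unadjusted p under 0.05, as had 2415 of the 20643 genes tested.

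Relatives of the family that were not among the members moved alike. Of 9 further family names, 5 were rows of the tables and 4 were tested over age. *Ifi203-ps*, a pseudogene beside *Ifi203*, had log2 differences of −1.03 in nonprogressors and −0.86 in progressors from 6 weeks to later times (standard errors 0.14 and 0.18), *Ifi208* of −1.49 and −1.02, and *Ifi214* of −1.54 and −1.32. These 3 of 4 were called lower by edgeR in each NOD cohort, and *Ifi206* (−0.69 and −0.62) was not. Of all genes 14.2% were called lower in nonprogressors and 18.5% in progressors. The relatives share sequence with members (14.3% of the 51-base stretches of *Ifi214* with *Ifi209*, for example), so their values are not separate evidence. By contrast, the median log2 difference of 61 tested genes within 2 Mb that are not of the family was 0.07 in nonprogressors, with 8 called lower and 5 higher, and it was 0.18 over 63 genes in progressors, with 8 lower and 16 higher.

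The interferon-stimulated genes, a list of 20 from outside the family, fell in both NOD cohorts. In nonprogressors 20 of 20 were called lower (median log2 difference −1.42, all genes −0.032), and in progressors 18 of 20 (median −1.05, all genes 0.013), by edgeR's test. Of all genes 14.2% and 18.5% were called lower in these cohorts. *Ifit1*, which encodes a protein that binds viral RNA, fell by 2.32 and 1.89 on the log2 scale (standard errors 0.29 and 0.32), and *Oas2*, a sensor of double-stranded RNA, fell by 1.54 and 1.20. In NOR 0 of 20 were called, where 0.0357% of all genes were. All differences of the list were below 0 there, from −1.26 to −0.074 (median −0.28). *Ifit3* (−0.89, standard error 0.29) and *Ifi44* (−1.26, standard error 0.42) had the smallest p. Their summed level had a median of 461.4 CPM at 6 weeks and 349.3 CPM later in NOR, 740.4 and 345.1 CPM in nonprogressors, and 539.0 and 368.1 CPM in progressors. Between strains 6 of 20 were called, 5 higher in NOD, where 8.98% of all genes were called.

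The partners of the DNA sensors moved in both directions. Of 27 pathway genes, 3 were called higher and 10 lower in nonprogressors after 6 weeks (median −0.022) and 7 and 7 in progressors (median 0.046), beside 9.88% and 14.2% of all genes in nonprogressors and 18.0% and 18.5% in progressors. Among other sensors, *Zbp1*, a sensor of Z-form nucleic acid, fell by 1.51 and 1.16 on the log2 scale and *Cgas*, which makes the ligand of STING, by 0.45 and 0.42 (standard errors 0.12 and 0.091), in nonprogressors and progressors. *Nlrp3* rose by 0.66 in nonprogressors. The adaptor gene *Sting1* fell by 0.26 and 0.31 (standard errors 0.082 and 0.075). *Pycard*, the adaptor of AIM2, rose by 0.26 in progressors (standard error 0.069) and had 0.12 in nonprogressors, where it was not called. *Irf7*, a transcription factor of the interferon response, fell by 1.64 and 1.38.

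Downstream of the AIM2 inflammasome, *Casp1* rose by 0.31 in progressors (standard error 0.10) and had −0.0048 in nonprogressors (standard error 0.11), a difference between cohorts that was not tested. *Il1b* rose by 1.19 and 0.88 (standard errors 0.42 and 0.32), *Il18* fell by 0.53 and 0.57, and *Gsdmd*, the pore-forming effector, had −0.022 and 0.046 and was not called. *Gsdmd* was named after its values were seen. Among nucleases, *Trex1*, which degrades cytosolic DNA, fell by 0.59 and 0.41, and *Dnase2a*, the lysosomal nuclease, rose by 0.53 and 0.52. In NOR 0 of the 27 were called over age, where 0.0357% of all genes were. *Il1b* had a log2 difference of 1.53 there (standard error 0.82), above its values in both NOD cohorts. Between strains 4 of 27 were called, beside 8.98% of all genes: *Irf7* (0.78) and *Enpp1* (0.56), which hydrolyses the ligand of STING, higher in NOD, and *Irf3* (−0.13) and *Il1b* (−1.68) lower.

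**Figure D4:**
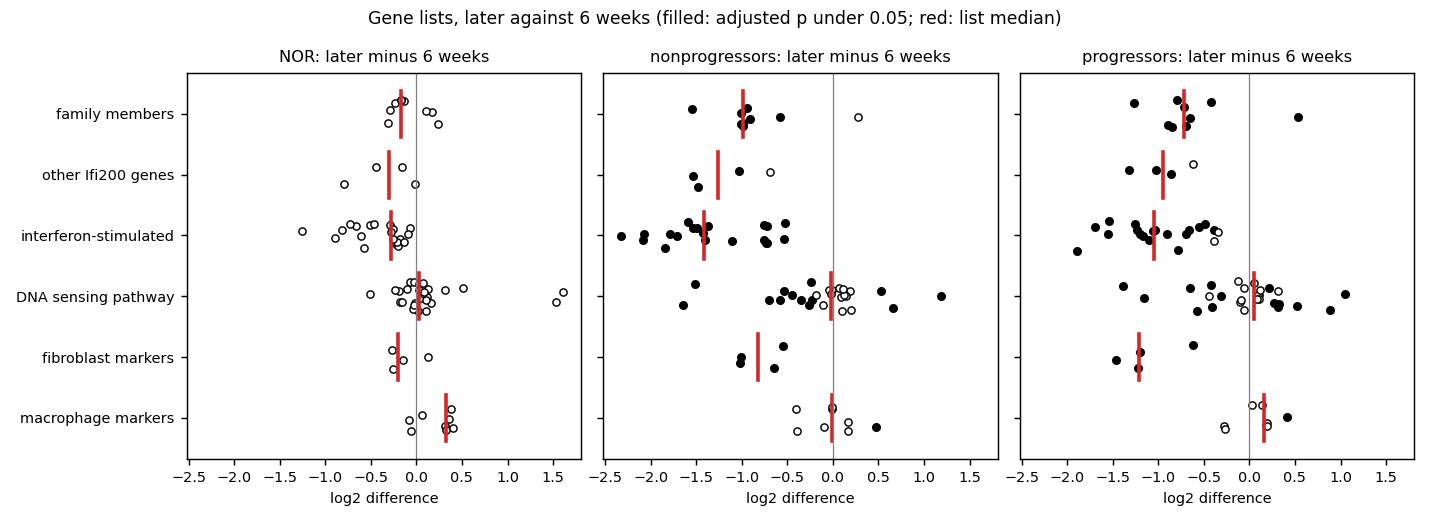
Log2 difference of later minus 6-week INs (x axis) for the members, their relatives, the interferon-stimulated list, the DNA sensing pathway, and fibroblast and macrophage markers, in each cohort; each point is a gene, filled where past an adjusted p of 0.05, and red bars are list medians. Interferon-stimulated genes and fibroblast markers lie left of 0 in both NOD panels, while pathway genes and macrophage markers spread around it.

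Markers of the cells in the INs moved over the same interval. Fibroblast markers were called lower in 4 of 4 genes in each NOD cohort (median −0.82 in nonprogressors and −1.21 in progressors) and in 0 of 4 in NOR (−0.20). The share of all genes called lower was 14.2%, 18.5% and 0.0357% in nonprogressors, progressors and NOR. The summed level of fibroblast markers was 24140 to 51260 CPM at 6 weeks and 9088 to 42940 CPM later in nonprogressors, 28030 to 62150 and 4143 to 33260 CPM in progressors, and 26630 to 33750 and 15160 to 69260 CPM in NOR. The summed level of macrophage markers was 4294 to 8283 CPM at 6 weeks and 3937 to 7618 CPM later in nonprogressors. In progressors that sum was 4596 to 8514 CPM and then 3927 to 10090 CPM. Keratinocyte markers were called lower in 3 of 4 genes in nonprogressors and in 1 of 4 in progressors. Their summed level in nonprogressors was 0.655 to 522.8 CPM at 6 weeks and 0.359 to 125.3 CPM later. The median of that sum went the other way, from 1.01 to 2.39 CPM, and from 1.05 to 3.91 CPM in progressors. In progressors *Krt10* (−1.30, called) and *Krt1* (−2.14) were below 0, and *Krt14* (2.33) and *Krt5* (2.18) above 0. T cell markers were higher in 3 of 5 genes in progressors (2.93 to 21.5 CPM summed at 6 weeks, 3.86 to 64.4 CPM later) and B cell markers in 3 of 4 (0.492 to 2.2 CPM, then 0.468 to 11.8 CPM). Muscle, adipocyte and neutrophil markers had 0 called over age, and *Krt5* was at 0 in all NOR INs at 6 weeks. The part of these cells in the levels of the members was not tested.

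Between strains, 3 of 8 macrophage markers were lower in NOD by edgeR's test, *C1qb* (−0.88), *C1qa* (−0.50) and *Csf1r* (−0.26), and none of the 8 was called higher. Of the T cell and neutrophil markers 1 each was called lower in NOD, and of the other marker lists 0. Among all genes 5.11% were called lower in NOD. The members, by contrast, had the small strain differences given above. Whether the macrophage content plays a part in those was not tested.

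Across INs, the members fell into different company. Pearson's r was computed on log2 CPM after removing the mean of each group and batch, and is a description. It covered 23871 genes over 114 INs that share libraries, batches and mice. The 18-week IN of NOR mouse 5, which listed *Ifi209* and *Ifi211* at 0, was among these INs, and r without it was not computed. *Ifi203* and *Mndal*, which have the same promoter stretch shown above, had the highest r of any pair of members (0.93), and both came with *Sp100* (0.91 and 0.86), an interferon-inducible gene of nuclear bodies. *Ifi204* was closest to *Ifi211* (0.87), followed by *Samd9l* (0.85) and *Trim30d* (0.83). *Ifi211* was closest to *Trim21* (0.90), *Meis2* (0.90) and *Ms4a6c* (0.90). *Ifi209* had *Mx1* (0.91), *Ifit2* (0.90) and *Oas2* (0.88) as its nearest genes, all interferon-stimulated. *Ifi202b* went with *Samd9l* (0.84), *Mndal* (0.83) and *Ifi203* (0.83), and *Ifi207* with *Ifi203* (0.75), *Slfn8* (0.72) and *Mndal* (0.71).

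*Ifi205* and *Aim2*, like *Ifi209* and *Ifi211*, had no member among their 3 nearest genes. *Ifi205* was closest to *Dpt* (0.92), which encodes the matrix protein dermatopontin and is among the fibroblast markers used here, then *Lbp* (0.88) and *Clec3b* (0.87), and had an r of 0.030 with *Ifi209*. *Aim2* was closest to *Ero1lb* (0.84), *Mtpn* (0.83) and *Trip12* (0.83), and its r with the other members ran from −0.47 (*Ifi205*) to 0.19 (*Ifi202b*). The transcripts of *Ifi211* share 44.5% of their 51-base stretches with *Ifi205*, and the promoter stretches of this pair share 57 of 65 bases. The r of *Ifi211* and *Ifi205* was 0.13. *Ifi207*, whose promoter stretch shares 54 of 65 bases with each of these, had an r of 0.49 with *Ifi205* and 0.44 with *Ifi211*. The part of shared sequence in these values was not tested.

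**Figure D5:**
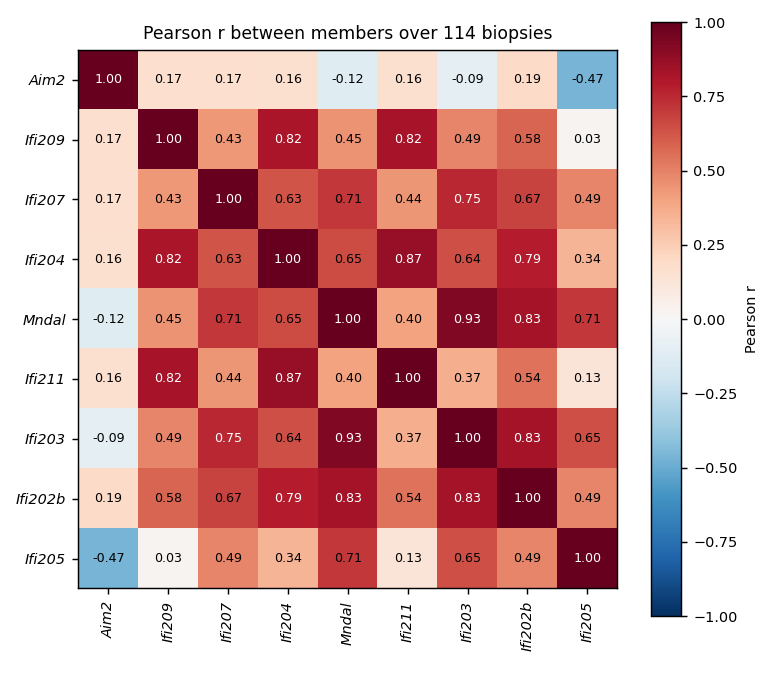
Pearson's r between members over 114 INs, on log2 CPM after removing group and batch means (colour scale from −1 to 1). *Ifi203* with *Mndal* (0.93) is the highest value, and the 3 values below 0 are all in the row of *Aim2* (−0.47, −0.12 and −0.09).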

How the data were processed

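Bulk RNA sequencing of 120 INs was analysed. The authors deposited expected counts per gene, estimates without normalization, as a table for each sequencing batch, and their processing notes name cutadapt, STAR, RSEM and GRCm38, with versions not given in the sources used here. Coordinates came from GENCODE M21 (99.4% of shared genes matched). After rounding, genes kept by filterByExpr were scaled by TMM and fitted in edgeR 4.0.16 (R 4.3.3) by its quasi-likelihood test, adding a batch term for cohorts sequenced in both batches. Genes were called at p below 0.05 after Benjamini-Hochberg adjustment over all genes tested. DESeq2 1.42.0 was the alternative tool. The procedure was tested on simulated data. The members and lists were chosen with earlier results of these data known; named genes were all members, their relatives and neighbours within 2 Mb, the 3 genes of highest r, and the 2 of smallest p in each direction per list. Mouse numbers in the labels pair repeated INs of a mouse. Deviations from group means had a mean r of 0.0134, 0.00962 and −0.00232 within mice of NOR, nonprogressors and progressors, against −0.0501, −0.0338 and −0.0167 between mice (2000 genes). Nothing in the labels separates cultures or litters, so p-values measure the spread between these INs. All 239 pairs of replicates differed by more than counting error (chi-square at least 13.5 times its degrees of freedom). Reporter rows held 1 count in all and were left out. Filters, scaling, block, batches and single libraries were varied. Single results for 2 genes outside the family are not reported here.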

Additional observations from a re-analysis of the deposited data

Results flagged for a closer look

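Of 135 groups of 4 to 10 INs, 9 members in 15 groups, 12 held a value far from the rest by Dixon's test, which chance does in about 1 of 20 groups. The 11 nonprogressor INs at 6 weeks were not among these groups, and there mouse 5 had 18.5 CPM of *Ifi209* (next 7.77). Progressor mouse 8, of batch 2, held 6 of the 12 flagged values: at −5 *Ifi209* had 17.7 CPM (next 3.99), *Ifi204* 69.4 (next 37.9), *Ifi203* 187.1 (next 85.6) and *Ifi202b* 55.4 (next 34.5), and at −3 *Ifi211* had 15.3 (next 10.4) and *Ifi205* 65.9 (next 32.4). Without its −5 IN, 9 of 9 members were still past the threshold against 6 weeks in progressors, 8 of them lower. Progressor mouse 10 had 15.2 CPM of *Ifi209* at 6 weeks (next 8.52).

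Of the other flagged values, NOR mouse 1 had 2.83 CPM of *Ifi209* at 22 weeks (next 1.61), NOR mouse 2 had 28.3 CPM of *Ifi204* at 6 weeks (next 21.6), and NOR mouse 3 had a low 17.1 CPM of *Ifi202b* at 22 weeks (next 19.9). Nonprogressor mouse 4 had 11.4 CPM of *Ifi211* at 22 weeks (next 6.27) and 56.6 CPM of *Ifi205* at 10 weeks (next 20.6).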

How the results depend on the processing

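The strain count of 0 became 1 of 9 (*Ifi202b*) with DESeq2, with nonprogressors only as NOD, and with each IN entered separately. Of all genes 12.7%, 6.26% and 9.33% were called in these settings. Within batch 1 of progressors 5 of 9 members were past the threshold against 6 weeks. Among the later ages, 2 members were called in NOR without the 18-week IN of mouse 5, and in nonprogressors DESeq2 called 4 and the fit with mice as a replicate block 1. Among times before onset in progressors, 0 were called with the replicate block and 0 without −7. The block changed no other call. Between progressors and nonprogressors at 6 weeks 1 of 9 differences was above 0 over both batches and 6 within batch 2, where that of *Ifi202b* turned to 0.067. The cause was not tested. Of the other values of single members, 10 moved by more than their spread, 3 lost their call and 337 did neither. No paired analysis was possible for the strain comparison or for progressors against nonprogressors because these compare different mice. With 4 NOR INs at 6 weeks, small changes in NOR were not detectable.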

Other observations

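The 6 nonprogressor INs labelled by days after implantation, all of batch 1 and not tied to a mouse, had *Ifi207* at 93.8 and 99.3 CPM at 31 days, 78.3 and 81.0 at 38 days and 80.3 and 84.6 at 108 days. For *Mndal* the values were 40.1 and 41.8, 28.2 and 29.8, and 31.2 and 31.9 CPM.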
